A study of Mus musculus with 8 samples.

Results

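The genes described here build and direct the vesicles of the secretory pathway: the protein-conducting channel of the endoplasmic reticulum (ER), the COPII and COPI coats, the p24 cargo receptors, and the Arf and Rab GTPases and SNARE proteins. They were chosen by gene symbol alone. Of 5828 genes listed in any of the 4 deposited comparison tables, 79 carried such a symbol: 9 translocon genes, 8 COPII genes, 7 p24 genes, 8 COPI genes, 5 Arf genes, 29 Rab genes and 13 SNARE genes. All 79 were listed in the epithelial genotype comparison, 51 in the compartment comparison in KO uterus, 35 in that in WT uterus and 19 in the stromal genotype comparison. A gene entered a table when its average exceeded 1 in at least 1 group of that table. Averages are scaled within each comparison: Arf1 in the KO stroma pool had 3.79 beside KO epithelium and 1.98 beside WT stroma. An average of 1 is thus a different level in each comparison. Absence from a table marks a level low on its scale and says nothing of a difference.

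Uteri of 4 Ezh2cKO mice (genotype EZ fl/fl; Prcre/+, KO below) and of 4 WT mice (EZ fl/fl, floxed but without Cre) of a mixed C57BL/6 and 129SvEv strain were profiled by Visium, which counts transcripts in barcoded spots on which a tissue section is laid. All mice were ovariectomized at postnatal day 71 ± 4 and their uteri were taken at day 112 ± 11, so both genotypes lacked ovarian hormones and both carried the floxed Ezh2 alleles. Cre was driven by the progesterone receptor locus, which is active in uterine epithelium, stroma and muscle, so Cre is not limited to 1 compartment. Ezh2 itself is listed in none of the tables used here, so the genotype labels were not checked against its level. Spots named epithelium or stroma by the authors were pooled over the animals of a genotype. There is thus 1 value per gene and pool, so the spread between animals is unknown and no value below has a replicate check. The p-values in the authors' deposited tables may measure the spread between spots.

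Ezh2 is the methyltransferase that puts H3K27me3, a repressive histone mark, on chromatin, in mammals mostly at CpG-rich promoters of developmental genes. Proteins destined for secretion enter the ER through the Sec61 channel, leave it in COPII vesicles, return escaped ER proteins in COPI vesicles, and reach the surface or the endosomes in carriers that Rab GTPases label and SNAREs fuse. The endometrial epithelium secretes into the uterine lumen from its apical face, and stromal cells secrete matrix. Most of these genes are used by every cell, whereas a few, among them Rab25, are known as genes of polarised epithelium.

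Levels are given as pooled counts of unique molecules (UMIs), recovered from the deposited averages, and as scaled UMIs, that is, counts brought to the depth of the KO epithelium pool. The pools were unequal in depth. The epithelial pools held 1552958 UMIs in KO and 1428541 in WT over listed genes, and the stromal pools 947663 in KO and 416747 in WT. The median member had 145 and 144 UMIs in KO and WT epithelium, and 137 and 81 in KO and WT stroma. Intervals in brackets are exact 95% counting intervals, which hold no variation between animals or spots. Genes were called where the adjusted p in the authors' deposited tables was under 0.05. The labelled compartments were checked against markers. Of 20 markers of simple epithelium, 13 had counts in all pools, and their summed level was 11635 and 13641 scaled UMIs in KO and WT epithelium, against 3809 and 1749 in KO and WT stroma. Of 18 markers of endometrial stroma, 15 had counts in all pools, with 11041 and 7982 in KO and WT epithelium, against 21442 and 23931 in KO and WT stroma. A spot can hold several cell types, and fewer cells of a type cannot be told apart from less RNA per cell.

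A small group of secretory genes was called between epithelium and stroma, and most were not: Sec23b, Rab25, Vamp8 and Stx18 were higher in epithelium and Rab34 was lower. Except for Sec23b in KO, each of these calls is of a gene whose average was above 1 only in the compartment where it was higher, so it entered the table through that compartment, which favours a large ratio. In KO uterus 3 of 51 members were called (5.88%, against 9.88% of all 2744 listed genes), 3 higher in epithelium (against 5.43%) and 0 lower (against 4.45%). In WT uterus 4 of 35 were called (11.4%, against 28.8% of all 1769 listed genes), 3 higher in epithelium (8.57%, against 13.1%) and 1 lower (2.86%, against 15.7%). Counting intervals left out the median gene for 5 members on the epithelial side (9.8%, against 22.6%) and 2 on the stromal side (3.92%, against 23.4%) in KO, and for 6 on each side in WT (17.1%, against 31.6% on the epithelial and 33.6% on the stromal side). Sec23b and Rab25 were called in both genotypes, Vamp8 and Rab34 in WT and Stx18 in KO. If expression guided the naming of spots, compartment differences would partly follow from it, and how spots were named is not stated in the sources used here.

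Sec23b encodes an inner-layer subunit of the COPII coat, which activates the GTPase of Sar1 and binds cargo adaptors. It lies on chromosome 2 (144556229 to 144590749, plus strand, GRCm38) and had 343 and 533 UMIs in the KO and WT epithelium pools, against 119 and 52 in the KO and WT stroma pools. On the common scale these are 343 and 578 in KO and WT epithelium, and 163 and 143 in KO and WT stroma, so both epithelial pools stood above both stromal pools. Epithelium was 2.11-fold above stroma in KO uterus (1.70 to 2.62) and 4.03-fold above it in WT uterus (3.03 to 5.47). The authors' deposited tables give adjusted p-values of 0.0038 in KO and 2.4e-08 in WT.

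Rab25, a Rab11-type GTPase that recycles membrane to the apical face of polarised epithelia, lies on chromosome 3 (88542029 to 88548300, minus strand). It had 145 and 180 UMIs in the KO and WT epithelium pools, against 48 and 9 in the KO and WT stroma pools. Scaled, that is 145 and 195 in KO and WT epithelium and 65.7 and 24.8 in KO and WT stroma. The epithelial level was 2.21 times the stromal one in KO uterus (1.58 to 3.13) and 7.87 times in WT uterus (4.05 to 17.5), with adjusted p-values of 0.0304 and 3.07e-09 in the authors' deposited tables for KO and WT. Its relatives Rab11a and Rab11b, which serve recycling endosomes in all cells, were not called: epithelium was 0.948 and 1.17 times stroma for these genes in KO uterus, and 0.942 and 1.29 times in WT uterus.

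Vamp8, a SNARE of late endosomes and secretory granules, had 225 and 226 UMIs in the KO and WT epithelium pools, against 108 and 44 in the KO and WT stroma pools. Its epithelial level was 1.52 times the stromal one in KO uterus (1.20 to 1.93; adjusted p = 0.307 in the authors' deposited table) and 2.02 times in WT uterus (1.46 to 2.86; adjusted p = 0.0195). Vamp2, which acts in regulated exocytosis, had 0.937 times the stromal level in KO epithelium and 0.816 times in WT epithelium. In WT the Vamp2 average was above 1 in stroma alone, which favours a low ratio.

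Stx18, an ER SNARE that receives vesicles returning from the Golgi, was the SNARE called in KO uterus. In KO uterus it had 197 UMIs in epithelium and 57 in stroma, a 2.52-fold difference (1.87 to 3.45; adjusted p = 0.000761 in the authors' deposited table). WT epithelium held 161 UMIs, or 174 on the common scale, and no WT stroma value is listed, so its WT contrast could not be given. The annotated gene overlaps Nsg1 and Gm42858 on the opposite strand, and the sources used here do not say whether counting used strand.

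Rab34, a GTPase of the Golgi and of ciliary vesicles, was the member called on the stromal side. It had 130 and 108 UMIs in KO and WT epithelium against 113 and 84 in KO and WT stroma. WT epithelium held 0.506 times the WT stroma level (0.377 to 0.681; adjusted p = 0.0159 in the authors' deposited table). In KO uterus the ratio was 0.840 (0.648 to 1.09; adjusted p = 0.985 in the authors' deposited table). Scaled levels were 130 and 117 in the KO and WT epithelium pools, and 155 and 231 in the KO and WT stroma pools, so WT stroma was the highest pool.

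**Figure D1:**
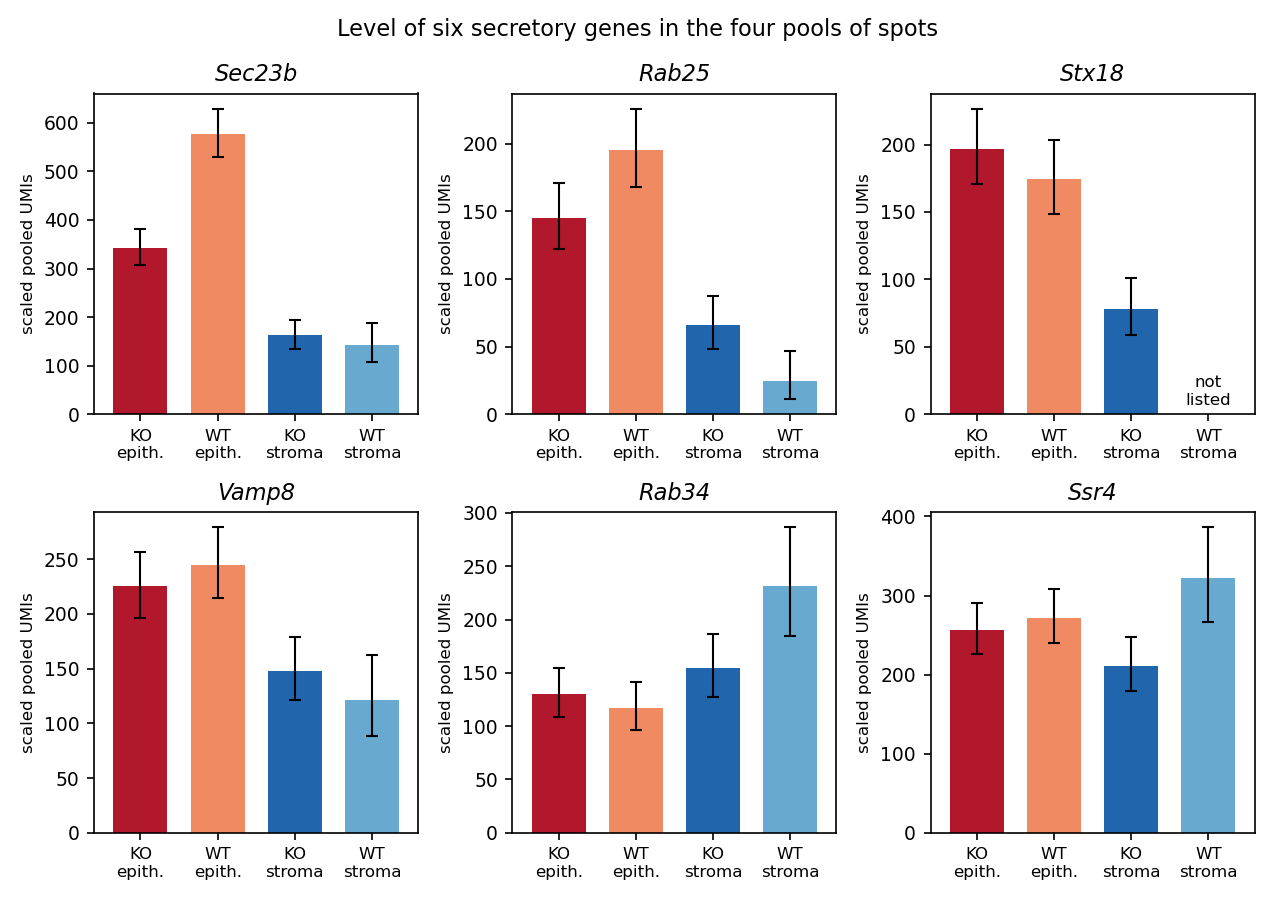
Scaled pooled UMIs of Sec23b, Rab25, Stx18, Vamp8, Rab34 and Ssr4 in the epithelium and stroma pools of KO and WT uteri (1 pool per bar); bars are pooled levels and whiskers exact 95% counting intervals. Sec23b and Rab25 are high in both epithelial pools, at 343 and 578 scaled UMIs for Sec23b, and Rab34 is highest in WT stroma at 231.

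The promoters of the 4 members called higher in epithelium are shown because they differ in CpG content. Ezh2 targets are mostly CpG-rich promoters, but CpG content alone does not name a target, and no H3K27me3 values were used here. Each run is 300 bases from RefSeq (GRCm38.p6), from 250 before to 50 after an annotated start, on the gene's own strand, with CpG dinucleotides in capitals. The windows lie at chr2:144555979-144556278 (plus strand) for Sec23b, chr5:38038980-38039279 (plus) for Stx18, chr3:88548230-88548529 (minus) for Rab25 and chr6:72390618-72390917 (minus) for Vamp8.
Sec23b: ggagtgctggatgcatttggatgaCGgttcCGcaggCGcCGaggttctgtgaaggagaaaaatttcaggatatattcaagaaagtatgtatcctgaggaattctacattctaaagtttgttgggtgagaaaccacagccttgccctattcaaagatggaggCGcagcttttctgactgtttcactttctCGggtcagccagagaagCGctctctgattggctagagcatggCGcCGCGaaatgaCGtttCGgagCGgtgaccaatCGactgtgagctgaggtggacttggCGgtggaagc
Stx18: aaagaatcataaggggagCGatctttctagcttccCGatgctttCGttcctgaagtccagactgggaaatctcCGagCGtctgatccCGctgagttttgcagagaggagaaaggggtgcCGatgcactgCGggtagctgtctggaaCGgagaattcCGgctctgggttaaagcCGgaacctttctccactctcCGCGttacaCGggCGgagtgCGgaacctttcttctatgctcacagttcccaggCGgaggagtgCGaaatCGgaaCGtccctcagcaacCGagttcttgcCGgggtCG
Rab25: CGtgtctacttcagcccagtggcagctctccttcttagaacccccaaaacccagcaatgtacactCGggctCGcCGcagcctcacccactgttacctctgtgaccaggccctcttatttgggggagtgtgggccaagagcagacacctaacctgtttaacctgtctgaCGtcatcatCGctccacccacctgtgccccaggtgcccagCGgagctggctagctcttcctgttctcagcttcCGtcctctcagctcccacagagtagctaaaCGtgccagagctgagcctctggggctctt
Vamp8: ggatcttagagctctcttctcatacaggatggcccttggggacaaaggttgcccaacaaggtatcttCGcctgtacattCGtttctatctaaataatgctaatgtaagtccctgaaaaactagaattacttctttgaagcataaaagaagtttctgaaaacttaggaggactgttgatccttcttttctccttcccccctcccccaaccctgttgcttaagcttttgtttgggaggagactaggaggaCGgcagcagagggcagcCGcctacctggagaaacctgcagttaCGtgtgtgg
The windows hold 15 CpGs for Sec23b, 23 for Stx18, 9 for Rab25 and 5 for Vamp8, an observed-to-expected CpG ratio of 0.829, 0.983, 0.371 and 0.306. The RefSeq start of Stx18 lies 488 bases from the GENCODE gene start, that of Vamp8 36 bases, that of Rab25 21 bases and that of Sec23b 0 bases. Sec23b has a further RefSeq start, not printed. Among 70 members with a RefSeq promoter, 59 (84.3%) had at least 1 window with a GC content over 50% and a CpG ratio over 0.6, as did 79.4% of the 4707 listed genes with one and 35.8% of all 27025 genes with one. Rab25 and Vamp8 are thus among the 11 members whose promoters fell outside these limits.

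Secretory genes are known to share control by the unfolded protein response, so its motifs were searched on both strands of the same windows. The sequence TGACGTGG, an element bound by XBP1 and ATF6, was found in 5 of 70 members (7.14%), against 1.17% of listed genes and 0.714% of all genes with a promoter. Its reverse complement begins with CCACG, which also ends the ER stress element. That longer element, a CCAAT box held by a spacer of fixed length from CCACG, was in 0 of 70 members, against 0.212% of listed genes. The CCAAT box alone was in 33 members (47.1%), against 42.2% of listed genes, and the grainyhead motif AACCGGTT was in 0, against 0.382%. The 5 matches are printed within 30 bases each, with the element in capitals in whichever orientation it had. On GRCm38.p6 they lie at chr11:59228228-59228257 (minus strand) for Arf1, chr7:114254690-114254719 (minus) for Copb1, chr9:98563713-98563742 (plus) for Copb2, chr3:123267459-123267488 (plus) for Sec24d and chr19:8741422-8741451 (plus) for Stx5a, whose window held the element a second time.
Arf1: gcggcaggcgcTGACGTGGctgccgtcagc
Copb1: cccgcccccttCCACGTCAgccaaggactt
Copb2: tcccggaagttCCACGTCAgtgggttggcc
Sec24d: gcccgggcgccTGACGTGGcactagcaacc
Stx5a: tggcgcagcagCCACGTCAccgagttagga
These letters mark no proven site, and none of Arf1, Copb1, Copb2, Sec24d and Stx5a was called in any table that lists it.

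The first genotype question was which secretory genes differ in epithelium when Ezh2 is deleted. None of the 79 members was called (0%), where 0.12% of all 5811 listed genes were (0.0688% higher and 0.0516% lower in KO), and the authors' deposited table gives 78 of the 79 an adjusted p-value of 1. The median log2 ratio (KO over WT) was -0.11 over members and -0.10 over all listed genes. Relative to the median gene 39 members stood higher, and the interquartile range of members ran from -0.25 to 0.01, against -0.28 to 0.08 for all genes. Counting intervals left out the median gene for 5 members on the high side (6.33%, against 11.9% of all genes) and 3 on the low side (3.8%, against 7.83%).

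**Figure D2:**
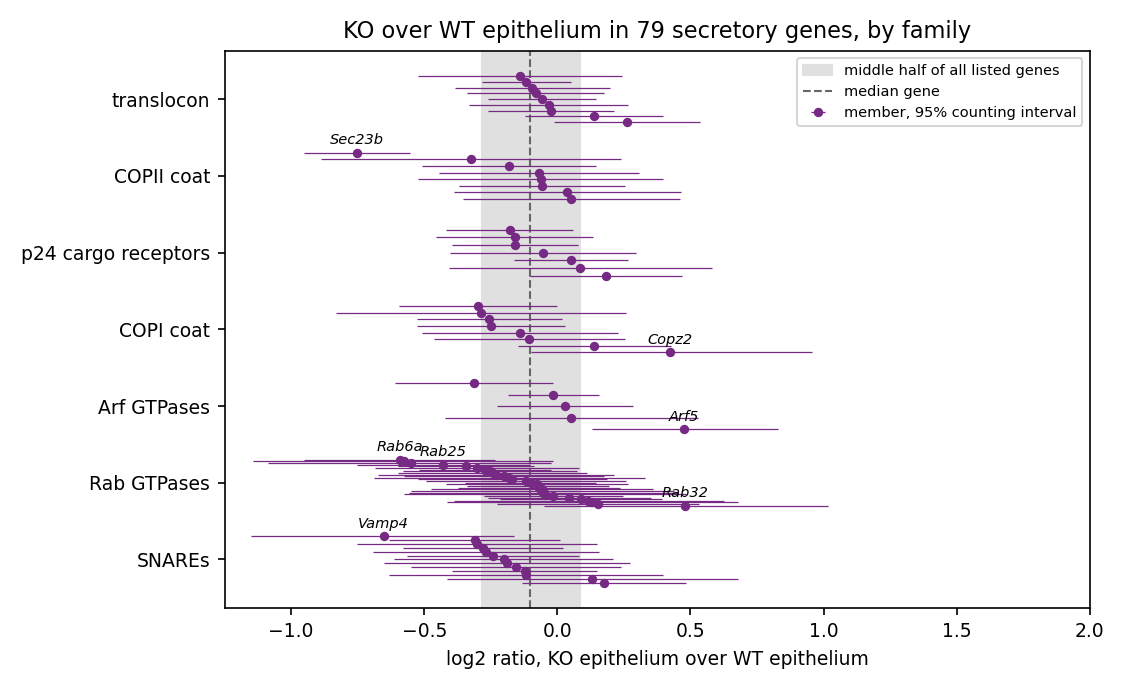
Log2 ratio of KO over WT epithelium for 79 members by family (1 pool per genotype), with 95% counting intervals; the grey band is the interquartile range of all 5811 listed genes and the dashed line their median. Members lie around the median gene at -0.10, and Sec23b at -0.75 is the lowest.

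Sec23b had the lowest ratio of all members. The authors' deposited average was 5.56 in KO epithelium and 9.37 in WT epithelium, and the KO level was 0.594 times the WT level (0.517 to 0.681). The adjusted p in the authors' deposited table was 0.757, so the difference was not called. Of the other COPII genes, Sec13, Sec16a, Sec24b, Sec24c, Sec24d and Sec31a had log2 ratios between -0.18 and 0.05, and Sec23ip, a Sec23-binding protein, had -0.32. The Sec23ip average was above 1 in WT alone, which favours a low ratio. The summed markers of simple epithelium stood at 0.853 times the WT level in KO epithelium, those of endometrial stroma at 1.38 times, those of smooth muscle at 0.666 times and those of plasma cells at 1.63 times. Markers within a list were not uniform. Higher in KO epithelium were 5 of 19 listed epithelial markers, 14 of 16 stromal markers and 2 of 12 muscle markers. Of the 5 plasma cell markers 3 were higher in KO epithelium. The others were lower, Xbp1 at 265 scaled UMIs in KO against 320 in WT and Iglc1 at 6 against 78. The part of these marker sets in the value of Sec23b was not tested.

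None of the genes of protein entry into the ER was called between genotypes in epithelium. Sec61a1, the channel itself, had 310 UMIs in KO and 291 in WT epithelium, and its small subunits Sec61b and Sec61g had 410 and 587 in KO against 394 and 587 in WT. Relative to the median gene, 7 of the 9 translocon genes stood higher, with a family median of -0.06 and a range of log2 ratios from -0.14 to 0.26. Ssr2, a subunit of the translocon-associated protein complex, was at the top with 257 UMIs in KO and 198 in WT epithelium, or 1.20 times the WT level (0.991 to 1.45; adjusted p = 1 in the authors' deposited table). The other Ssr genes had log2 ratios of -0.03 for Ssr1, 0.14 for Ssr3 and -0.08 for Ssr4.

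Cargo receptors and the COPI coat also had no call. The p24 proteins, which select cargo at both coats, had a median log2 ratio of -0.05 over 7 genes, from -0.18 for Tmed2 to 0.18 for Tmed3, with 231 UMIs in KO and 188 in WT epithelium for Tmed3. Among 8 COPI genes 2 stood above the median gene, both of them zeta subunits: Copz1 at 0.14 and Copz2 at 0.42. Copz2, the alternative zeta subunit, had 77 UMIs in KO and 53 in WT epithelium, and its average was above 1 in KO alone, which favours a high ratio in this table. The 6 other coatomer genes ranged from -0.30 for Copg1 to -0.11 for Copb2.

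Arf5, a Golgi-associated GTPase of the Arf family, had 175 UMIs in KO and 116 in WT epithelium, or 1.39 times the WT level (1.09 to 1.78). Its adjusted p in the authors' deposited table was 1. Arf1, which recruits COPI to Golgi membranes, had 578 UMIs in KO against 539 in WT epithelium, and log2 ratios were 0.03 for Arf4, 0.05 for Arf6 and -0.31 for Arf3. The annotated Arf5 gene overlaps Gcc1 on the opposite strand.

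The 29 Rab genes had a median log2 ratio of -0.10 in epithelium, as had the median gene. Rab6a, which runs Golgi transport, had 113 UMIs in KO and 157 in WT epithelium, or 0.664 times the WT level (0.517 to 0.851; adjusted p = 1 in the authors' deposited table). Its gene overlaps Mrpl48 on the opposite strand and Gm14382 on its own. The 6 ER and Golgi Rabs (Rab1a, Rab1b, Rab2a, Rab6a, Rab18 and Rab43) were at or below -0.07. Relative to the median gene at -0.10, 3 of them stood higher and 3 lower. Among 14 endosomal and recycling Rabs the median was -0.12. The 3 isoforms of the early endosome GTPase Rab5 were at -0.24 for Rab5a, -0.17 for Rab5b and -0.25 for Rab5c, while Rab4b stood at -0.55. The Rab4b average was above 1 in WT alone, which favours a low ratio. Rab25 itself had 0.743 times the WT level in KO epithelium (0.593 to 0.930), a difference that was not called. Rab8a and Rab10, which serve exocytosis, were at -0.12 and 0.04. Rab32, a GTPase of lysosome-related organelles, had the highest log2 ratio at 0.48, on 77 UMIs in KO and 51 in WT epithelium, and an average above 1 in KO alone.

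SNARE genes had the lowest family median, -0.20 over 13 genes, close to -0.19 for the 8 COPI genes. Among the SNARE genes 2, Stx18 at 0.18 and Stx8 at 0.13, stood above the median gene. The Stx8 average was above 1 in KO alone, which favours a high ratio. Vamp4, a SNARE of the trans-Golgi network, had 60 UMIs in KO and 87 in WT epithelium, or 0.636 times the WT level (0.450 to 0.894; adjusted p = 1 in the authors' deposited table), with an average above 1 in WT alone. The plasma membrane syntaxin Stx4a was at -0.31, the Golgi syntaxin Stx5a at -0.28 and the endosomal syntaxins Stx7 and Stx12 at -0.27 and -0.19.

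In stroma the genotype table lists 19 members, and again none was called (0%, against 1.51% of all 1191 listed genes, 0.756% higher and 0.756% lower in KO). Members had a median log2 ratio of -0.11, against -0.05 for all listed genes, and 9 of the 19 stood above the median gene. Counting intervals left out the median gene for 1 member on the high side (5.26%, against 24.3%) and 2 on the low side (10.5%, against 20.6%). Ssr4, the delta subunit of the translocon-associated complex, had the lowest ratio. It had 154 UMIs in KO and 117 in WT stroma, or 211 and 322 on the common scale, which is 0.654 times the WT level (0.511 to 0.839; adjusted p = 0.833 in the authors' deposited table). Its partners were at 0.789 for Ssr1, 1.26 for Ssr2 and 0.986 for Ssr3 times the WT level. Ssr4 and Ssr1 had an average above 1 in WT stroma alone, which favours a low ratio here. The Ssr2 average was above 1 in KO stroma alone, which favours a high ratio. Secretory cells of the stroma include plasma cells, and 5 plasma cell markers with counts in all pools had a summed level in KO stroma 0.686 times that in WT stroma. Jchain, which links secreted IgA and IgM, stood at 1464 scaled UMIs in the KO and 2752 in the WT stroma pool. The part of plasma cells in the Ssr4 value was not tested.

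Rab14, a GTPase between Golgi and endosomes, had 158 UMIs in KO and 109 in WT stroma, or 0.720 times the WT level (0.561 to 0.928). Copa, the alpha coatomer subunit, was at the other end with 191 and 74 UMIs in KO and WT stroma, or 1.28 times the WT level (0.976 to 1.70). For Rab14 and Copa the adjusted p-value in the authors' deposited table was 1. The average was above 1 in WT stroma alone for Rab14 and in KO stroma alone for Copa. Entry through 1 genotype favours a low ratio for Rab14 and a high ratio for Copa. The abundant Sec61g had 388 UMIs in KO and 217 in WT stroma, 0.889 times the WT level, and Arf1 had 0.977 times.

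Counts from the compartment tables extend the stromal comparison to 35 members, 16 of which the stroma table does not list. Over these 35 the median log2 ratio was -0.02, against -0.04 for all 1755 genes with counts in all pools. Intervals left out the median gene for 4 members on the high side (11.4%, against 21.8% of all such genes) and 4 on the low side (11.4%, against 17.5%). On the high side were Rab25, Tmed3, Copz1 and Copa. Rab25 had 48 UMIs in KO and 9 in WT stroma, or 2.65 times the WT level (1.29 to 6.15), Tmed3 had 1.43 times (1.03 to 2.02) and Copz1 1.42 times (1.05 to 1.94). On the low side were Ssr4, Rab34, Rab18 and Rab14, with Rab34 at 0.669 times the WT level (0.500 to 0.898) and the lipid droplet and ER GTPase Rab18 at 0.717 times (0.531 to 0.971). Beside these values, the summed simple epithelium markers in KO stroma stood at 2.18 times their WT level, and the smooth muscle markers at 0.473 times. The part of epithelial or muscle RNA in these ratios was not tested, and no adjusted p exists for the 16 added genes. In the WT compartment comparison Rab34 and Rab18 had an average above 1 in stroma alone. That favours a low KO over WT ratio in stroma for these genes.

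**Figure D3:**
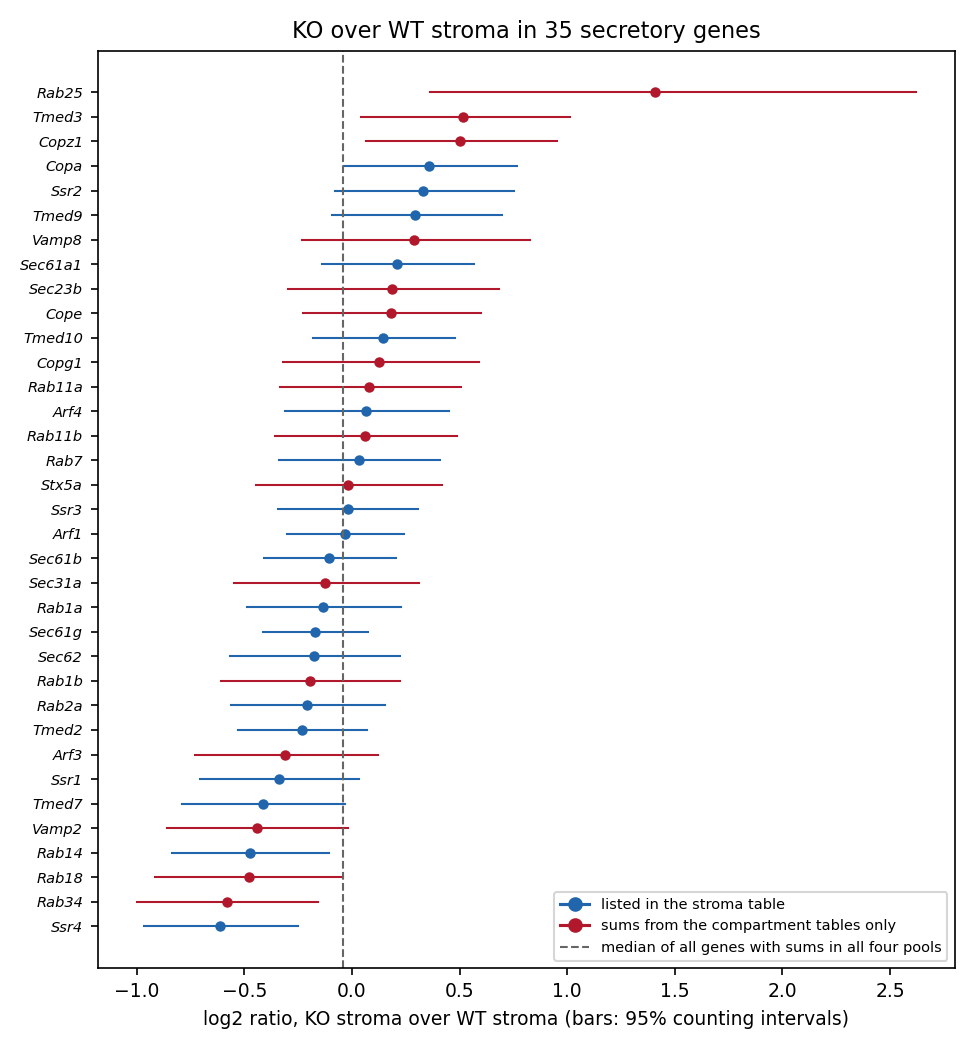
Log2 ratio of KO over WT stroma for 35 members with counts in all pools (1 pool per genotype), ordered by value, with 95% counting intervals; blue marks genes of the stroma table and red genes whose counts come from the compartment tables, and the dashed line is the median of 1755 genes at -0.04. Rab25 is at the top at 1.41 and Ssr4 at the bottom at -0.61.

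Beyond the called genes, the compartment comparison gave the following values. The median log2 ratio of epithelium over stroma in KO uterus was -0.01 over members and -0.01 over all listed genes, and in WT uterus it was 0.15 over members and 0.02 over all listed genes. The COPI genes Copa, Cope, Copg1 and Copz1 had log2 ratios from -0.28 to -0.04 in KO uterus and from 0.32 to 0.39 in WT uterus. The counting interval of each of these ratios included equal levels, and the WT ratios share the shallow WT stroma pool. In KO uterus Copb1 at 0.28 and Copb2 at -0.03 are listed too, and no COPI gene was called in either genotype. Copg1 and Copz1 in WT and Copb1 in KO had an average above 1 in epithelium alone, which favours a high ratio. The 3 Arf genes with values in all pools had ratios above 1 in both genotypes without a call, with Arf1 at 1.25 times the stromal level in KO (1.09 to 1.43) and 1.23 times in WT (1.04 to 1.47). Ssr1 and Ssr3 went the other way, at 0.884 and 0.841 times the stromal level in KO epithelium and 0.714 and 0.754 times in WT epithelium, without a call.

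None of the p24 genes was called between compartments. Tmed9 stood at 1.14 times the stromal level in KO and 1.56 times in WT (1.21 to 2.03 in WT; adjusted p = 0.157 in the authors' deposited table). Tmed3 stood likewise at 1.17 times in KO and 1.48 times in WT. In WT the Tmed3 average was above 1 in epithelium alone, which favours a high ratio. Tmed2 stood at 0.821 times in KO (0.692 to 0.975) and 0.792 times in WT (0.649 to 0.970), and Tmed7 at 0.924 times in KO and 0.775 times in WT.

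Summed over its members with counts in all pools, the translocon family had 2492 and 2529 scaled UMIs in the KO and WT epithelium pools, and 2407 and 2612 in the KO and WT stroma pools. Epithelium was thus 1.04 times stroma in KO and 0.969 times in WT for these 8 genes. For the 10 Rab genes the ratios were 1.06 in KO and 1.03 in WT, and for all 35 members 1.06 in KO and 1.11 in WT.

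The compartment contrast was smaller in KO than in WT for 27 of the 35 members (77.1%), and the same held for 77.9% of the 1755 genes. All 35 were listed in the WT compartment comparison, and 23 of them had an average above 1 in both WT pools. Entry of the others through 1 WT compartment favours a large WT contrast. WT stroma was also the shallowest pool, at 0.363 times the depth of KO epithelium against 0.730 for KO stroma. Counting error therefore widens WT contrasts more than KO contrasts. The members' median absolute log2 contrast was 0.14 in KO and 0.30 in WT, against 0.27 in KO and 0.45 in WT for all such genes. Direction was shared between genotypes by 26 members (74.3%), against 84.4% of all genes. Across the 35 genes, which are not independent replicates and share their pools, Pearson's r of the KO and WT contrasts was 0.86, and 0.61 without Rab25 and Sec23b. Over all 1755 genes it was 0.91. Whether any single gene's contrast differed between genotypes was not tested, since each pool gives 1 value.

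**Figure D4:**
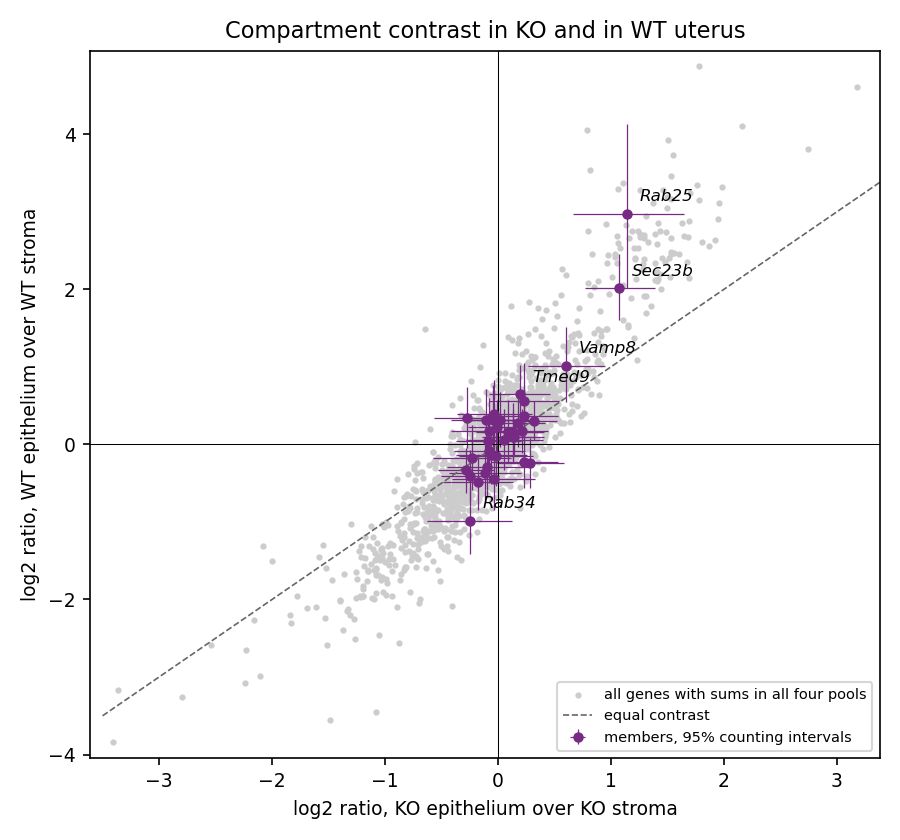
Log2 ratio of epithelium over stroma in KO uterus (x axis) and WT uterus (y axis) for 35 members with 95% counting intervals in both directions, over 1755 genes in grey; the dashed line marks equal contrasts. Rab25 (1.14 in KO, 2.98 in WT) and Sec23b (1.07 in KO, 2.01 in WT) lie farthest from 0 among the members and above the line.

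The surrounding pathway, listed as 193 genes in 9 groups from the signal recognition particle to the clathrin coat, is given beside the members. In epithelium 132 were listed and none was called between genotypes, where 0.12% of all listed genes were. The log2 ratios of these 132 genes between KO and WT pools centred on a median of -0.09, against -0.10 for all listed genes. In stroma 26 were listed and none was called, where 1.51% of all listed genes were. Their median there was -0.02, against -0.05 for all listed genes. Calls were rare among all listed genes too, so these zeros do not set the pathway apart. Medians of single groups in epithelium ran from -0.21 for 15 Rab regulators to 0.01 for 12 oligosaccharyltransferase subunits, which attach sugars to entering proteins. Between compartments 59 were listed in KO and none was called, and 37 were listed in WT and 2 were called, both higher in epithelium, where 9.88% of all listed genes were called in KO, and 28.8% in WT, 13.1% on the epithelial side. These were Ap2m1 and Ap2s1, subunits of the adaptor that loads clathrin vesicles at the plasma membrane. Ap2m1 had 525 UMIs in WT epithelium and 102 in WT stroma, a 2.02-fold difference (1.64 to 2.53), and Ap2s1 had 233 and 47 UMIs in WT epithelium and WT stroma, 1.95-fold (1.42 to 2.73). The authors' deposited table gives adjusted p-values of 0.00192 and 0.0251 for them. The Ap2s1 average was above 1 in epithelium alone, which favours a high ratio.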

How the data were processed

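Visium libraries were made from uterine cryosections of 10 µm, per the labels' protocols. Reads were placed on GRCm38, as the submitters' processing notes name it. How reads were aligned, spots named and p-values obtained is not stated in the sources used here. Per the file headers, each of the 4 deposited tables holds an average signal per group, a log2 fold change and an adjusted p-value. Pooled counts were recovered by solving for the size factor sums that make the deposited log2 values exact; all averages then gave counts within 0.01 of a whole number. Ratios use these counts without a pseudocount, with exact Clopper-Pearson 95% intervals for counting error only. Recovery and intervals were tested on simulated data. Positions are from GENCODE M21 (5826 of 5828 gene IDs found) and promoters from RefSeq, matched by symbol. The members, gene lists, motifs and tests were chosen with earlier results of these data known. Full values were given for every called member and for up to 6 further members per direction and table with an average above 1 in both groups and a counting interval that leaves out the median gene; other members were named to cover their families or after their values were seen. Alternatives were an adjusted p-value of 0.01, an absolute log2 fold of at least 1, leaving out the lowest 25% of genes, an average above 1 in both groups, the deposited log2 values and centring on the median gene. Scripts used Python 3.11.15, NumPy 2.4.6, SciPy 1.17.1 and pandas 2.3.3.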

Additional observations from a re-analysis of the deposited data

Results flagged for a closer look

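Rab25 had opposite genotype differences in the compartments, with counting intervals on either side of equality, although the epithelial interval does not leave out the median gene of its table. The log2 ratio of KO over WT was -0.43 in epithelium (0.743 times the WT level, 0.593 to 0.930) and 1.41 in stroma (2.65 times, 1.29 to 6.15). The epithelial difference was not called, the stromal one is in no deposited comparison and rests on 9 UMIs in WT stroma, and the difference between compartments was not tested. Summed simple epithelium markers stood at 0.853 times their WT level in KO epithelium, where 5 of 19 listed markers were higher in KO. In KO stroma they stood at 2.18 times, where 7 of 7 listed markers were higher in KO. The part of these markers in the Rab25 values was not tested.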

How the results depend on the processing

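The count of members called between compartments in WT, 4 as reported, was 2 at an adjusted p of 0.01, 1 without the lowest 25% of genes by level and 0 among members with an average above 1 in both groups, a filter that by construction drops genes low in 1 compartment. The same filter left 1 of 3 called members in KO. At 0.01 Rab34 and Vamp8 in WT and Rab25 in KO lost their call. Both genotype counts stayed at 0. Median log2 ratios have no spread to judge a shift by. Centred on the median gene they were -0.00061 for KO over WT epithelium, -0.055 for KO over WT stroma, -0.0022 for epithelium over stroma in KO and 0.14 in WT. Without the lowest 25% of genes they were -0.12, -0.13, 0.015 and 0.12 in the same order. With an average above 1 in both groups they were -0.034 in stroma, 0.0026 between compartments in KO and 0.10 in WT, so the KO compartment median changed sign under both filters. With all 35 members, chosen after seeing the data, the stroma median was -0.021. No paired analysis was possible because no deposited column holds a single uterus, so neither litter blocks nor fits without 1 animal could be run. Depth limits the stromal values, with a median of 81 UMIs per member in WT stroma over the 35 members with a count there.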
